A study of Capra hircus with 12 samples.

Results

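The genes of 9 ion channel families were followed across mammary biopsies of Majorera and Palmera dairy goats under an adequate and a restricted diet. Members were all genes in the 6 deposited tables whose symbols start with KCN, CACN, SCN plus a digit, SCNN, CLCN, CLCA, GABR, GRIA, GRIK, GRIN, TRPA, TRPC, TRPM or TRPV plus a digit, P2RX or CHRN, with the exception of TRPM2. This gave 39 genes of the 4974 in any table, and 0 of them were P2RX genes. The families were KCN (12 genes), TRP (6 genes), GABR (5 genes), SCN and SCNN (4 genes together), CLCN and CHRN (3 genes each) and CACN, CLCA and GRI (2 genes each). The RefSeq annotation of the goat assembly ARS1.2 lists 226 protein-coding genes with such symbols, of which 37 were in a table (16.4%), beside 20.1% of all 20572 protein-coding genes in it.

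The 4 groups were ME, restricted Majorera goats, MC, Majorera goats on the control diet, PE, restricted Palmera goats, and PC, Palmera goats on the control diet, with 3 goats and 3 libraries in each. Restricted goats received wheat straw with vitamins and minerals, and control goats a ration that met the needs of lactation. The goats used in the trial were in peak lactation, and the left side of the udder was biopsied at its end. By then, the study reports, milk yield and body weight of the restricted goats had fallen. Since each diet was fed in a pen of its own, effects of the pen and of the diet cannot be told apart. In whole biopsies, fewer cells of a type and less RNA per cell cannot be told apart.

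Ion channels let sodium, potassium, calcium or chloride cross a membrane along a gradient. In the lactating mammary epithelium, potassium and chloride channels help to set the ionic composition of milk, which is rich in potassium and poor in sodium, and calcium channels and pumps carry calcium towards milk. Many members of these families are best known from neurons, immune cells or muscle, all of which a biopsy can hold. Several members are not pores: KCNIP1, KCNIP3, KCNAB2, KCNMB4 and SCN2B are accessory subunits, CLCA2 and CLCA4 are secreted or membrane-bound regulators of calcium-activated chloride channels, CLCN3, CLCN4 and CLCN5 are chloride/proton exchangers of endosomes, and TRPC4AP is a protein that binds a TRP channel.

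The tables hold RSEM expected counts per gene and library, and each table lists only the genes that passed a threshold on the unadjusted p in its own pair of groups. Every member was therefore chosen on the outcome of at least 1 comparison, and a member outside a table has no value for a group unless another table holds that group. Counts in all 12 libraries were held for 14 members, counts in 9 libraries for 14 and counts in 6 libraries for 11. Most were low: 17 of the 39 members exceeded 100 counts in a library and 9 stayed under 20 counts in every library. Levels are given in CPM, counts scaled to 1 M (mega) mapped reads, after correction with TMM factors, which remove differences in RNA composition. They compare libraries for a gene and not genes with each other, since no transcript lengths were at hand.

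The effective library sizes, mapped reads times TMM factor, were 40.3 to 80.1 M reads in ME, 28.4 to 30.7 M reads in MC, 29.1 to 52.6 M reads in PE and 32.3 to 32.4 M reads in PC. ME replicate 2 stood apart, with a TMM factor of 1.91 against 0.634 to 1.36 in the other libraries. The sum over 6 secretory markers (CSN1S1, CSN1S2, CSN2, CSN3, LALBA and KRT18) was 79760 to 284895 CPM in ME, against 383914 to 517078 CPM in MC. In Palmera it was 107113 to 397701 CPM in PE, against 394620 to 618464 CPM in PC. CSN2, a casein, had 53046 to 479507 CPM and KRT18 3.93 to 23.9 CPM, so that the sum follows mainly casein RNA. In the fit over all 12 libraries, 5 of the 6 were lower under restriction and 1 was higher. The sum over 8 macrophage markers ran from 54.0 to 182 CPM in ME, against 21.4 to 37.1 CPM in MC, and from 28.8 to 57.5 CPM in PE, against 18.6 to 29.5 CPM in PC, with ME replicate 2 the highest and PE replicate 2 the lowest restricted library. These sums rest on the markers of each list with counts in all libraries (6 of 14 and 8 of 16).

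Across both breeds, CLCA2 was the member that rose under feed restriction by the rule for differentially expressed genes (DEGs), which asks for more than 100 counts in a library, a Log2FC beyond 1.5 in either direction and an adjusted p under 0.05. In the fit over all 12 libraries its diet average, the mean of the Log2FC of the restricted over the control group in each breed, was 1.66 (SE 0.31, n = 3 per group, adjusted p = 0.0172, edgeR quasi-likelihood test with Benjamini-Hochberg adjustment). The rule called 1 of the 14 members in this fit, beside 5.47% of the 1408 genes fitted (77 genes). Since these genes hold counts in every library only through being listed in several tables, they are no random sample of the transcriptome. At an unadjusted p under 0.05 stood 10 of the 14 members, beside 77.3% of the genes fitted. The median diet average was 0.68 over the members (8 above 0) and 0.23 over all 1408 genes (51.8% above 0).

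CLCA2 (gene 102186735) had 1.64, 1.26 and 1.64 CPM in ME, against 0.651, 0.765 and 0.562 CPM in MC. In Palmera it had 1.60, 0.584 and 2.22 CPM in PE, against 0.434, 0.370 and 0.216 CPM in PC. In both breeds every restricted library lay above every control library of that breed, and the lowest restricted value was that of PE replicate 2. The Log2FC was 1.19 (SE 0.28, adjusted p = 0.171) for ME vs. MC and 2.13 (SE 0.51, adjusted p = 0.114) for PE vs. PC, so that neither pair passed the test alone. Without PE replicate 2, the Log2FC for PE vs. PC was 2.48 (adjusted p = 0.0369). Without PE replicate 3, the diet average was 1.45 (adjusted p = 0.0489), under the minimum of 1.5, and in the other alternatives it lay between 1.54 and 2.096. In order of group means, ME (1.51 ± 0.22 CPM, SD) came before PE (1.47 ± 0.83 CPM), MC (0.660 ± 0.102 CPM) and PC (0.340 ± 0.112 CPM), and of neighbours in that order MC and PC alone did not overlap. The macrophage sums above were also higher in every ME than in every MC library, with PE replicate 2 inside the range of PC, and Spearman's rho between them and the CPM of CLCA2 was 0.82 over the 12 libraries. With the secretory sum, rho of CLCA2 was -0.71. The part of these cells in the result was not tested. The sum over 4 of 11 markers of skin and duct lining overlapped between diets in both breeds, with 8.80 to 144 CPM in ME, against 15.6 to 22.9 CPM in MC, and 18.6 to 86.1 CPM in PE, against 12.2 to 21.2 CPM in PC. Each of these 4 markers had a diet average above 0 (median 1.52), with 0 of them at an adjusted p under 0.05. Over the 12 libraries, rho of CLCA2 with their sum was 0.13, and their part was not tested.

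CLCA4, the paralogue of CLCA2, varied far more within groups. It had 0.496, 0.312 and 3.00 CPM in ME, against 0.260, 0.348 and 0.527 CPM in MC. The Palmera values were 0.580, 0.378 and 1.90 CPM in PE, against 0.062, 0.679 and 0.185 CPM in PC. Replicate 3 of each restricted group was high and the remaining restricted libraries overlapped the controls. The Log2FC was 1.73 (SE 0.87, adjusted p = 0.698) for ME vs. MC and 1.66 (SE 0.79, adjusted p = 0.425) for PE vs. PC, and the diet average of 1.69 did not pass the test (SE 0.67, adjusted p = 0.397). Without ME replicate 3 the Log2FC for ME vs. MC was 0.06, and without PE replicate 3 that for PE vs. PC was 0.66.

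**Figure D1:**
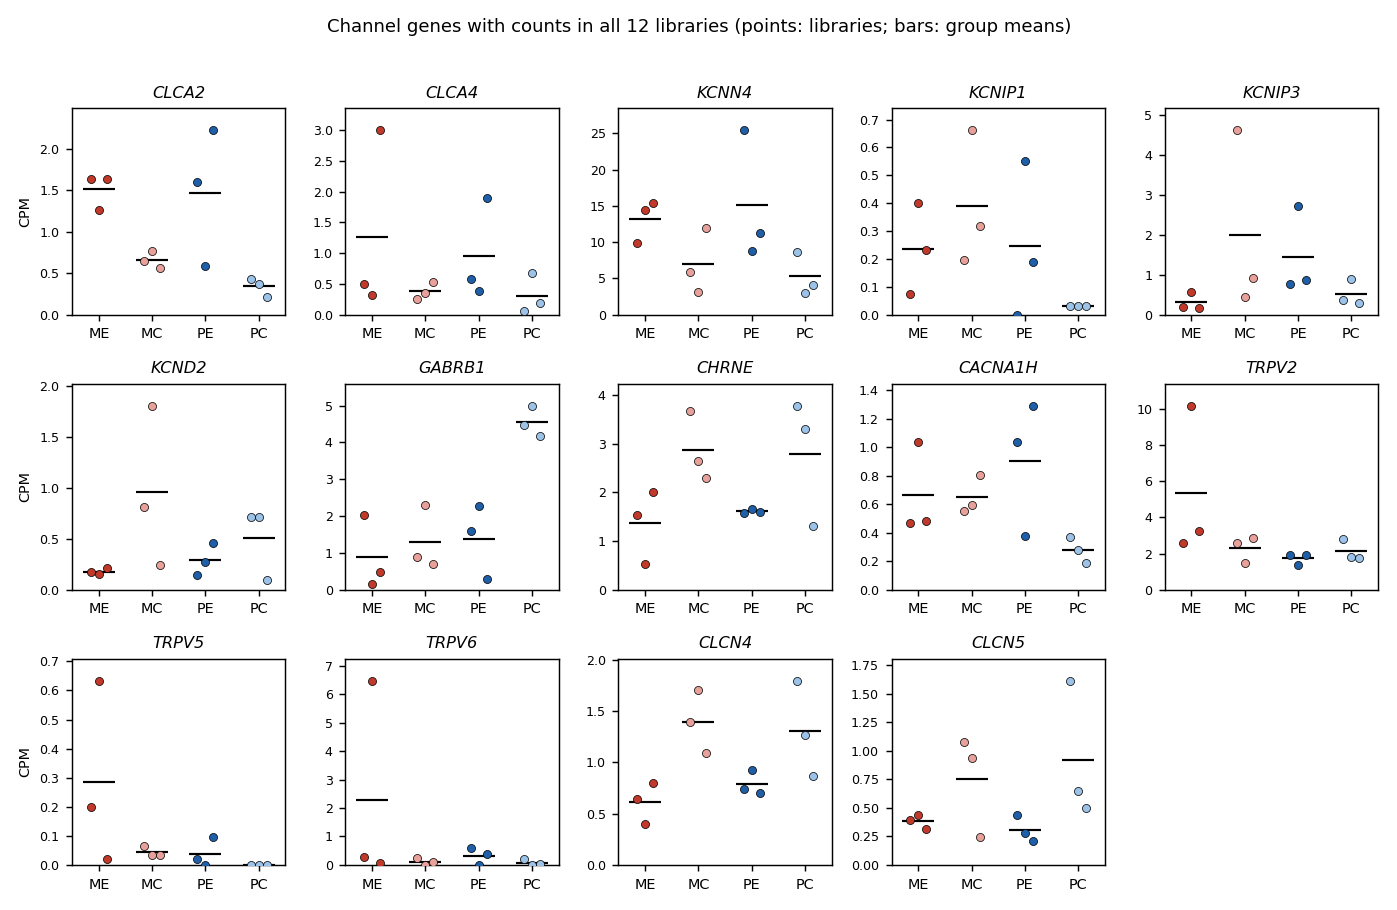
CPM on the y axis for the 14 channel genes with counts in all 12 libraries, with the groups ME, MC, PE and PC on the x axis. Each point is a library and each bar a group mean. CLCA2 is higher in every restricted library than in the controls of its breed, GABRB1 is highest in PC (4.17 to 4.999 CPM), and ME replicate 2 is the highest library for TRPV2, TRPV5 and TRPV6.

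The 3 endosomal exchangers of the CLCN family had lower means under restriction in every pair that could be compared. CLCN4 had 0.645, 0.399 and 0.797 CPM in ME, against 1.40, 1.70 and 1.09 CPM in MC, and 0.740, 0.928 and 0.703 CPM in PE, against 1.80, 1.27 and 0.865 CPM in PC. The Majorera groups did not overlap and the Palmera groups did. Its diet average of -0.97 (SE 0.25, adjusted p = 0.0681) came closest after CLCA2 to the threshold on the adjusted p, with values from 0.0245 to 1 over the alternatives. With at most 58 counts in a library and a diet average of -1.09 to -0.65 over the alternatives, it met neither other part of the rule for DEGs.

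CLCN5 had 0.397, 0.437 and 0.315 CPM in ME, against 1.07, 0.939 and 0.246 CPM in MC, and 0.440, 0.275 and 0.209 CPM in PE, against 1.61, 0.648 and 0.495 CPM in PC. PE and PC did not overlap, and MC replicate 3 lay below all ME libraries. CLCN3 had no values in PE. It had 4.86, 3.26 and 4.24 CPM in ME, against 5.43, 7.93 and 5.84 CPM in MC, with no overlap (Log2FC -0.64, SE 0.23, adjusted p = 0.313). With mapped reads alone as the scale, without TMM, the Log2FC of CLCN3 turned to 0.15. The secretory sums above were likewise lower in every ME than in every MC library, with PE replicate 2 within the range of PC, and their part in these values was not tested.

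Among potassium channels, KCNN4, an intermediate-conductance channel opened by calcium and known from lymphocytes, macrophages and secretory epithelia, had the highest counts. It had 9.89, 14.5 and 15.3 CPM in ME, against 5.89, 3.13 and 11.95 CPM in MC. In Palmera it had 25.4, 8.70 and 11.2 CPM in PE, against 8.65, 3.02 and 4.11 CPM in PC. PE and PC separated by a margin of 8.70 to 8.65 CPM, and MC replicate 3 overlapped ME. The Log2FC was 0.92 (SE 0.43, adjusted p = 0.574, or 1.55 without MC replicate 3) for ME vs. MC and 1.53 (SE 0.47, adjusted p = 0.168) for PE vs. PC. The diet average was 1.22 (SE 0.36, adjusted p = 0.112). Without PE replicate 1, the Log2FC for PE vs. PC was 0.92 (adjusted p = 0.519).

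KCNA3, a voltage-gated channel of lymphocytes, averaged 1.71 ± 0.52 CPM in ME and 1.45 ± 0.87 CPM in PE, against 0.680 ± 0.092 CPM in PC (SD, n = 3 each). Both restricted groups lay wholly above PC (Log2FC 1.33, SE 0.33, adjusted p = 0.161 for ME vs. PC and 1.11, SE 0.43, adjusted p = 0.247 for PE vs. PC). Without PE replicate 3 the Log2FC for PE vs. PC was 0.48 (adjusted p = 0.952). KCNAB2, a beta subunit of the same channel group, averaged 1.503 ± 0.529 CPM in ME, against 0.660 ± 0.152 CPM in PC. The sum of CD3E and NKG7, the 2 of 15 T and NK cell markers with counts in all libraries, was 10.4 to 19.5 CPM in ME and 5.54 to 12.5 CPM in PE, against 4.27 to 6.02 CPM in PC. The sum over 5 of 7 neutrophil markers was highest in PE replicate 1, at 43.2 CPM, the library with the highest KCNN4 value. Over 12 libraries Spearman's rho of KCNN4 was 0.76 with the macrophage sum, 0.57 with the T and NK cell sum and -0.70 with the secretory sum. For KCNA3, over 9 libraries, rho was 0.78, 0.82 and -0.80 in the same order. These are descriptions over libraries that share their diet groups and scaling, and the part of immune or secretory cells in the values was not tested.

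**Figure D2:**
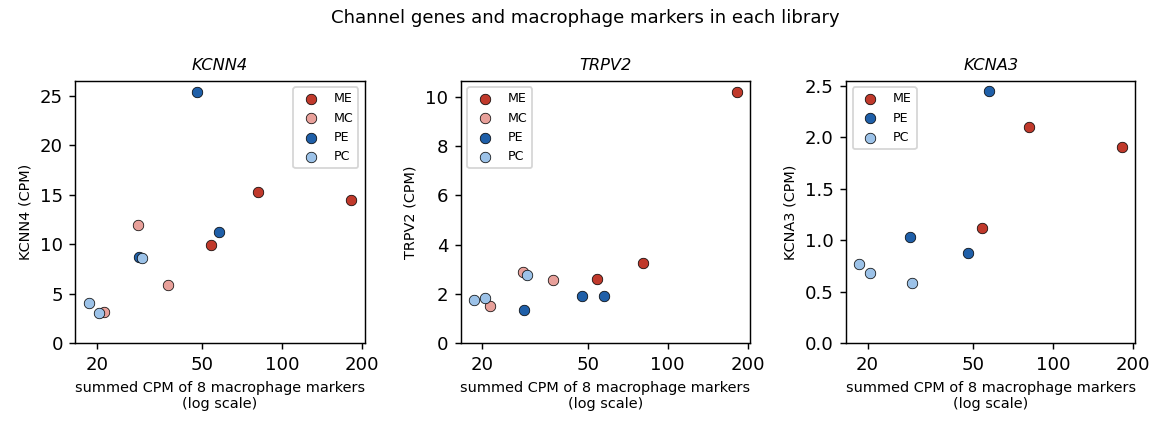
CPM of KCNN4, TRPV2 and KCNA3 (y axes) against the summed CPM of 8 macrophage markers (x axes, log scale), with 1 point for each library and colours for the groups ME, MC, PE and PC (KCNA3 has no values in MC). ME replicate 2 lies at the right end at 182 CPM and holds the highest TRPV2 value of 10.2 CPM, while the highest KCNN4 value of 25.4 CPM is PE replicate 1.

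The A-type potassium channel genes and their calcium-binding partners did not share a pattern. KCND2, a pore subunit, had 0.174, 0.150 and 0.210 CPM in ME, against 0.813, 1.81 and 0.246 CPM in MC, with no overlap (Log2FC -2.43, SE 0.66, adjusted p = 0.204, or -1.59 without MC replicate 2). It had 0.140, 0.275 and 0.456 CPM in PE, against 0.713, 0.710 and 0.0927 CPM in PC, where PC replicate 3 was the lowest. KCND1, the related pore subunit, lay the other way, with 0.548 ± 0.280 CPM in ME, against 0.192 ± 0.079 CPM in MC (Log2FC 1.54, SE 0.52, adjusted p = 0.282) and 0.501 ± 0.231 CPM in PE.

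KCNIP1 (gene 102185117), which modulates these channels, was near the limit of detection in control Palmera goats. It had 0.031, 0.0309 and 0.0309 CPM in PC, which is 1 count in each library, against 0.195, 0.661 and 0.316 CPM in MC. This was the smallest p of a member for PC vs. MC and did not pass the test (Log2FC -3.49, SE 0.68, adjusted p = 0.582). As a ratio of summed counts, 3 in PC to 34 in MC, the level was 0.080 of that in MC, with a 95% counting interval of 0.016 to 0.254 that covers counting error only. ME had 0.0744, 0.399 and 0.231 CPM and PE had 0, 0.550 and 0.190 CPM. ME did not overlap PC (ratio 8.85, interval 2.85 to 44.5), whereas PE replicate 1 held no count and lay below PC (ratio 6.39, interval 1.96 to 33.0).

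KCNIP3, its paralogue, had a Log2FC of opposite sign in the breeds and passed no test. It had 0.198, 0.574 and 0.168 CPM in ME, against 4.62, 0.452 and 0.914 CPM in MC, and 0.760, 2.72 and 0.855 CPM in PE, against 0.372, 0.895 and 0.278 CPM in PC. MC replicate 1 and PE replicate 2 were high, and the groups overlapped in both breeds. The Log2FC was -2.59 (SE 0.87, adjusted p = 0.282) for ME vs. MC and 1.43 (SE 0.61, adjusted p = 0.307) for PE vs. PC. Without MC replicate 1 the Log2FC for ME vs. MC was -1.03. PE and ME did not overlap (Log2FC 2.08, SE 0.66, adjusted p = 0.741). Without PE replicate 2 the Log2FC was 0.65 for PE vs. PC and 1.28 for PE vs. ME.

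The other potassium channel members were held in fewer groups. KCNK6, a tandem-pore-domain channel, averaged 6.05 ± 3.23 CPM in ME and 5.26 ± 1.90 CPM in PE, against 10.6 ± 1.6 CPM in PC, and PC lay above both (Log2FC -0.82, SE 0.40, adjusted p = 0.501 for ME vs. PC and -1.02, SE 0.26, adjusted p = 0.123 for PE vs. PC). KCNK1, of the same class, averaged 5.20 ± 1.16 CPM in ME, against 7.77 ± 1.85 CPM in MC (Log2FC -0.58, SE 0.24, adjusted p = 0.428), and turned to 0.21 with mapped reads alone. KCNMB4, a beta subunit of the large-conductance calcium-activated channel, averaged 1.07 ± 0.57 CPM in PE, against 0.454 ± 0.095 CPM in PC (Log2FC 1.26, SE 0.43, adjusted p = 0.199). KCNH8, a voltage-gated channel, held at most 18 counts in a library and summed to 31 counts in ME, against 3 in PC (ratio 5.96, interval 1.86 to 30.5).

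Of the calcium entry routes, the voltage-gated channel CACNA1H, a T-type channel, was lowest in PC. It had 1.04, 0.378 and 1.29 CPM in PE, against 0.372, 0.278 and 0.185 CPM in PC, and 0.471, 1.04 and 0.483 CPM in ME, against 0.553, 0.591 and 0.808 CPM in MC. PC overlapped none of the other groups, the nearest value being PE replicate 2 at 0.378 CPM. The Log2FC was 1.73 (SE 0.50, adjusted p = 0.147) for PE vs. PC, -1.21 (SE 0.39, adjusted p = 0.736) for PC vs. MC and 1.28 (SE 0.47, adjusted p = 0.250) for ME vs. PC. Without PE replicate 2 the value for PE vs. PC was 2.06 (adjusted p = 0.0493), with 68 counts as the highest of a library. CACNA1G, another T-type channel, summed to 4 counts in ME, all in replicate 2, against 18 in MC and 15 in PC.

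TRPV5 and TRPV6, the calcium-selective channels of transporting epithelia, had most of their counts in a single library. TRPV6 had 0.273, 6.48 and 0.0629 CPM in ME, against 0.228, 0 and 0.105 CPM in MC, and 0.600, 0 and 0.380 CPM in PE, against 0.217, 0 and 0.0309 CPM in PC. TRPV5 had 0.198, 0.633 and 0.021 CPM in ME, against 0.0651, 0.0348 and 0.0352 CPM in MC, and 0.020, 0 and 0.0951 CPM in PE, against 0 in all PC libraries. ME replicate 2 held 519 of the 601 TRPV6 counts and 50.7 of the 70 TRPV5 counts of the series. These are fractions, 519.26 and 50.74, that sum to 570, and of the 360 member values only 3 were not whole, so that reads of this library could belong to either paralogue and the split between them is uncertain. The Log2FC of TRPV6 for ME vs. MC was 4.33 (SE 1.69, adjusted p = 0.378) and 0.51 without that library, and for PE vs. ME it was -2.72 (SE 1.48, adjusted p = 1) and 1.13 without it. Against PC, where TRPV5 had no count, the summed TRPV5 level of ME was at least 11.5-fold higher, with a floor of 3 counts over the PC group. Without ME replicate 2 the 9 counts left put this bound at 3.31-fold, an alternative chosen after seeing the data.

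TRPV2, a cation channel known from immune cells and muscle, was also highest in that library, with 2.60, 10.2 and 3.27 CPM in ME, against 2.57, 1.496 and 2.88 CPM in MC. It had 1.92, 1.34 and 1.94 CPM in PE, against 2.79, 1.82 and 1.76 CPM in PC. ME lay above PE without overlap (Log2FC -1.63 for PE vs. ME, SE 0.51, adjusted p = 0.741), and this became -0.75 (adjusted p = 0.929) without ME replicate 2. For ME vs. MC the Log2FC was 1.22 (SE 0.53, adjusted p = 0.473) with that library and 0.34 without it. Macrophage markers were highest in the same library, and their part in the TRPV2 value was not tested.

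TRPM8 and TRPM3 had lower means in PE than in the control groups with values. TRPM8, a channel opened by cold and menthol, had 2.22, 3.06 and 2.49 CPM in PE, against 6.35, 5.88 and 3.41 CPM in MC and 2.70, 5.03 and 6.31 CPM in PC. PE and MC did not overlap, and this was the smallest p of a member in that pair (Log2FC -1.02, SE 0.27, adjusted p = 0.151). The sum over 5 of 12 markers of myoepithelium and smooth muscle was 49.4 to 120 CPM in PE, against 185 to 216 CPM in MC and 108 to 187 CPM in PC. Of these 5 markers, 4 had a diet average below 0 (2 of them at an adjusted p under 0.05 by edgeR). The remaining 1 lay above 0, also at an adjusted p under 0.05. Over these 9 libraries, rho of TRPM8 was 0.83 with this sum, 0.22 with the secretory sum and -0.62 with the macrophage sum. The part of these cells in the values was not tested. TRPM3, a heat-sensitive channel of sensory neurons, had no count in PE, against 0.093, 0.154 and 0.155 CPM in PC (3, 5 and 5 counts). Its level in PE was at least 5.88-fold lower than in PC with the floor of 3 counts over the group, and the test gave the smallest p of a member for PE vs. PC (adjusted p = 0.100). ME held 0, 0.0125 and 0.021 CPM of TRPM3, a ratio to PC of 0.089 with an interval of 0.0097 to 0.392.

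TRPC4AP, the highest of the TRP group in counts, had 5.55, 4.23 and 5.46 CPM in ME and 4.48, 5.81 and 4.45 CPM in PE, against 11.002, 8.15 and 8.28 CPM in PC. Neither restricted group overlapped PC (Log2FC -0.85, SE 0.21, adjusted p = 0.154 for ME vs. PC and -0.90, SE 0.20, adjusted p = 0.104 for PE vs. PC). Over these 9 libraries, which share their groups and scaling, Spearman's rho with the secretory sum was 0.95 for TRPC4AP and 0.95 for KCNK6, and with the macrophage sum -0.82 for TRPC4AP and -0.75 for KCNK6. The part of either cell type in the values was not tested.

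Of the sodium channel genes, SCN7A, a channel that senses the sodium level and is known from glia and Schwann cells, had 4.59, 1.31 and 1.26 CPM in ME and 1.46, 7.15 and 0.456 CPM in PE, against 8.55, 8.76 and 5.53 CPM in PC. ME and PC did not overlap (Log2FC -1.69, SE 0.50, adjusted p = 0.182), while PE replicate 2 lay within the range of PC (Log2FC -1.38, SE 0.75, adjusted p = 0.619). Without PE replicate 2 the Log2FC for PE vs. PC was -2.99 (adjusted p = 0.0416), and without ME replicate 1 that for ME vs. PC was -2.56 (adjusted p = 0.0957). PE replicate 2 also had the highest secretory sum of the restricted libraries (397701 CPM), within the range of PC. Over the 9 libraries with values, rho of SCN7A was 0.90 with the secretory sum and -0.80 with the macrophage sum, and the part of these cells was not tested. The sum over 3 of 12 nerve and Schwann cell markers was 18.9 to 41.5 CPM in ME and 25.7 to 28.1 CPM in PE, against 18.4 to 130 CPM in PC, and their part was not tested. SCN2B, a beta subunit, summed to 23 counts in PE, against 2 in PC (ratio 8.47, interval 2.09 to 74.2). The epithelial sodium channel, through which epithelia absorb sodium, was represented by SCNN1A, with 0.093 ± 0.054 CPM in PC, against 0.299 ± 0.198 CPM in MC, and by SCNN1B, with 0.061 ± 0.047 CPM in ME, against 0.226 ± 0.104 CPM in MC. Neither exceeded 15 counts in a library or passed the test (adjusted p = 0.799 and 0.346).

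**Figure D3:**
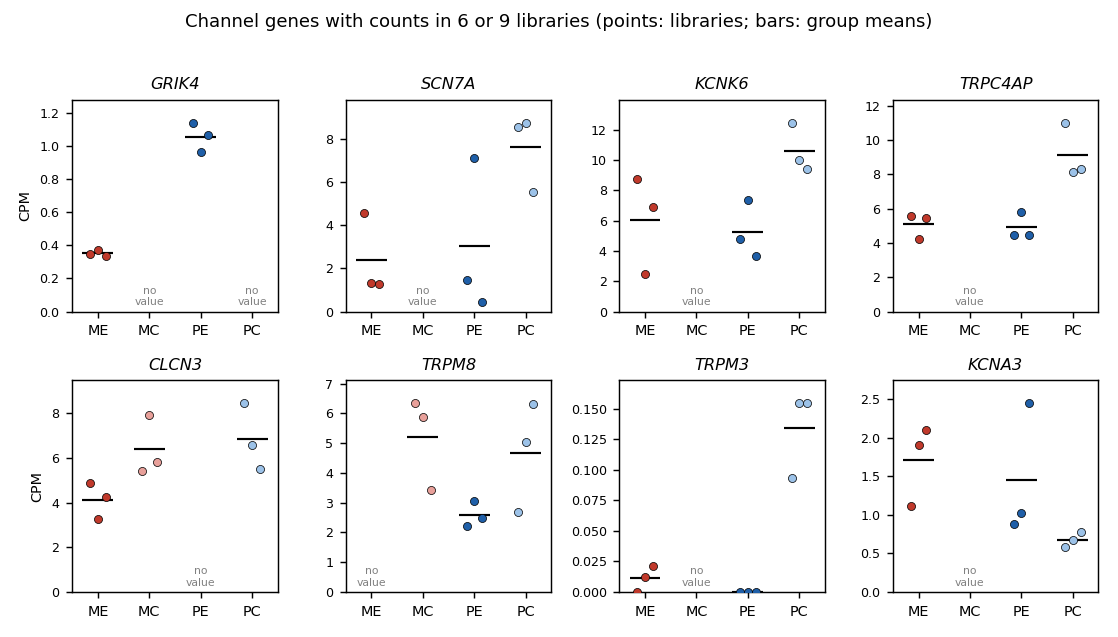
CPM on the y axis for 8 channel genes with counts in 6 or 9 libraries, with the groups ME, MC, PE and PC on the x axis, where each point is a library, each bar a group mean and "no value" a group outside the tables that list the gene. GRIK4 is higher in each PE library (0.962 to 1.14 CPM) than in each ME library (0.336 to 0.375 CPM), and PC lies above ME and PE for KCNK6, TRPC4AP and TRPM3.

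Subunits of GABA-A receptors, chloride channels opened by the transmitter GABA, were led by GABRB1 (gene 102185727). It had 4.46, 4.999 and 4.17 CPM in PC, against 0.879, 2.30 and 0.703 CPM in MC. The restricted groups had 1.60, 2.27 and 0.285 CPM in PE and 2.03, 0.162 and 0.483 CPM in ME. Every PC library lay above each of the other 9 libraries, and the other groups overlapped each other. The Log2FC was 1.81 (SE 0.40, adjusted p = 0.612) for PC vs. MC, -1.75 (SE 0.55, adjusted p = 0.171) for PE vs. PC and -2.40 (SE 0.73, adjusted p = 0.186) for ME vs. PC. The last became -3.87 (adjusted p = 0.0957) without ME replicate 1, and PC vs. MC became 2.51 (adjusted p = 0.190) without MC replicate 2. Over the 12 libraries Spearman's rho of GABRB1 was 0.80 with the secretory sum and -0.79 with the macrophage sum, a description over libraries that share their groups and scaling, and the part of these cells was not tested. With no filter on low rows in the scaling and the spread, the pairs PC vs. MC and PE vs. PC passed the rule for DEGs. With mapped reads alone as the scale, ME vs. PC passed it (Log2FC -2.16, adjusted p = 0.0149 by edgeR). The study itself counts GABRB1 among its DEGs, higher in PC than in MC and lower in PE than in PC.

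GABRP, the pi subunit known from epithelia including breast, averaged 0.353 ± 0.192 CPM in PE, against 0.835 ± 0.204 CPM in PC and 0.859 ± 0.412 CPM in MC. GABRA3, an alpha subunit, averaged 0.178 ± 0.088 CPM in ME, against 0.540 ± 0.466 CPM in MC and 0.731 ± 0.446 CPM in PC. The adjusted p values of GABRP and GABRA3 lay between 0.188 and 0.425 in the pairs that list them.

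GRIK4 (gene 102187065), a kainate-type glutamate receptor subunit, was listed only between the restricted groups. It had 1.14, 0.962 and 1.06 CPM in PE, against 0.347, 0.375 and 0.336 CPM in ME, with little spread within a group and a wide gap between them. It had the smallest p of a member in this pair and still did not pass the adjustment over all genes (Log2FC 1.58, SE 0.26, adjusted p = 0.426). Over the alternatives the Log2FC stayed between 1.05 and 1.63. GRIA1, an AMPA-type subunit, averaged 0.206 ± 0.094 CPM in PC, against 0.532 ± 0.081 CPM in MC, without overlap (Log2FC -1.35, SE 0.42, adjusted p = 0.736).

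Among nicotinic acetylcholine receptor subunits, CHRNE, the epsilon subunit of the receptor of adult muscle, had 1.54, 0.537 and 2.01 CPM in ME, against 3.68, 2.64 and 2.28 CPM in MC. It had 1.58, 1.65 and 1.60 CPM in PE, against 3.78, 3.302 and 1.30 CPM in PC, where PC replicate 3 was the lowest. The Majorera groups did not overlap (Log2FC -1.09, SE 0.46, adjusted p = 0.436), and the diet average was -0.95 (SE 0.32, adjusted p = 0.198). CHRNA2 averaged 1.45 ± 0.51 CPM in PE, against 0.721 ± 0.063 CPM in PC and 0.798 ± 0.167 CPM in MC, and PE did not overlap PC (Log2FC 1.03, SE 0.33, adjusted p = 0.183). CHRNA5 averaged 0.117 ± 0.032 CPM in PE, against 0.370 ± 0.240 CPM in MC (Log2FC -1.67, SE 0.57, adjusted p = 0.239).

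Read by comparison, the effect of the diet within each breed was listed for 18 members in Majorera and 20 members in Palmera. For ME vs. MC, 7 members had a higher mean in ME (CLCA2, CLCA4, KCND1, KCNN4, TRPV2, TRPV5 and TRPV6) and 11 a lower one, with a median Log2FC of -0.87 against 0.68 over all 1779 listed genes, of which 52.2% were higher in ME. Of the 18, 7 did not overlap between groups, beside 70.3% of all listed genes. No member passed the rule for DEGs by edgeR (0 of 18, beside 0.259% of genes with counts in the pair), 15 had an unadjusted p under 0.05 (85.9% of listed genes), and DESeq2 called 0. For PE vs. PC, 11 members had a higher mean in PE and 9 a lower one, with a median of 1.07 against 0.58 over all 2262 listed genes (50.8% higher in PE). Here 14 of 20 members did not overlap, beside 73.0%. By edgeR 0 of 20 passed, beside 0.0% of genes with counts, 16 had an unadjusted p under 0.05 (91.9% of listed genes), and DESeq2 called 1, CLCA2 (adjusted p = 0.0471). All these genes had been chosen for differing in the pair, so these counts describe the tables.

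**Figure D4:**
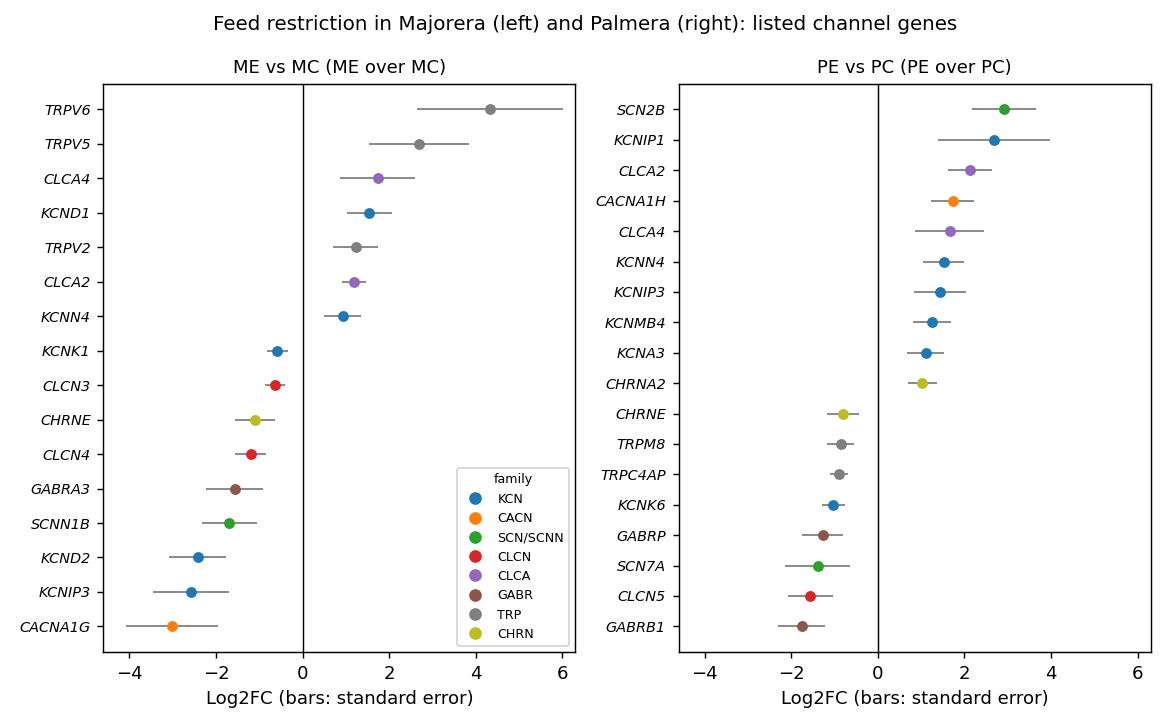
Log2FC (x axis, bars show the standard error) of listed channel genes (y axis) for ME over MC on the left, with 16 genes drawn, and PE over PC on the right, with 18 genes drawn, coloured by family. TRPM3, without counts in PE, is among those left out. CLCA2, CLCA4 and KCNN4 lie above 0 and CHRNE below 0 in both panels, and KCNIP3 lies below 0 on the left and above 0 on the right.

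Of the 5 members listed in both diet comparisons, 4 had the same sign in both (CLCA2, CLCA4, KCNN4 and CHRNE) and KCNIP3 had opposite signs, beside 588 of 616 genes with the same sign (95.5%) among all genes with counts in 12 libraries that both tables list. The comparisons share no library. The interaction, the Log2FC of PE vs. PC minus that of ME vs. MC, was tested for the 14 members with counts in all libraries. By edgeR 0 of 14 passed, beside 0.071% of the 1408 genes, 4 had an unadjusted p under 0.05 (beside 15.8%), and DESeq2 called 0. The interaction was above 0 for 9 of the 14, beside 47.7% of the genes. The smallest p was that of KCNIP3 (4.04, SE 1.19, adjusted p = 1), which became 2.50 without MC replicate 1. The remaining 3 were KCNIP1 (3.36, SE 1.54), CACNA1H (1.66, SE 0.71) and TRPV2 (-1.502, SE 0.65, or -0.63 without ME replicate 2). The test thus did not show a difference in diet response between the breeds for these genes.

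Between the breeds on the control diet, 6 members were listed, 1 with a higher mean in PC (GABRB1) and 5 with a lower one (CACNA1H, GRIA1, KCNIP1, KCNIP3 and SCNN1A). The median Log2FC was -1.496 against -0.78 over all 755 listed genes, of which 41.2% were higher in PC, and 5 of the 6 did not overlap, beside 63.8%. By edgeR 0 of 6 passed, beside 0.0429% of genes with counts, all 6 had an unadjusted p under 0.05 (90.5% of listed genes), and DESeq2 called 0. Between the restricted groups 5 members were listed, with GRIK4 and KCNIP3 higher and TRPV2, TRPV5 and TRPV6 lower in PE. Without ME replicate 2, TRPV6 turned to 1.13 and TRPV2 became -0.75, still without overlap. Their median was -1.63 against -0.91 over all 920 listed genes (37.6% higher in PE), 3 of 5 did not overlap (54.5% of listed genes), 0 passed by edgeR (0.0% of genes with counts), 4 had an unadjusted p under 0.05 (73.9% of listed genes) and DESeq2 called 0. The breed average over both diets called 0 of 14 members, beside 0.071% of the 1408 genes, with 4 at an unadjusted p under 0.05 (22.6% of genes) and 0 by DESeq2. Its value was above 0 for 4 of the 14, beside 42.6% of the genes. The members at an unadjusted p under 0.05 were TRPV2 (-0.88, SE 0.32), KCNIP1 (-1.85, SE 0.76), GABRB1 (1.24, SE 0.56) and TRPV5.

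The pairs that differ in both breed and diet listed 13 members for PE vs. MC and 24 for ME vs. PC. For PE vs. MC, 6 had a higher mean in PE and 7 a lower one (45.2% of the 1869 listed genes were higher), 6 did not overlap (69.7% of listed genes), 0 passed by edgeR (0.397% of genes with counts), 11 had an unadjusted p under 0.05 (91.4% of listed genes) and DESeq2 called 0. For ME vs. PC, 11 had a higher mean in ME and 13 a lower one (58.3% of the 2282 listed genes were higher), 17 did not overlap (74.2% of listed genes), 0 passed by edgeR (0.0% of genes with counts), 20 had an unadjusted p under 0.05 (88.6% of listed genes) and DESeq2 called 1. This was CLCA2, with a Log2FC of 2.14 (SE 0.36) and an adjusted p of 0.105 by edgeR and 0.00698 by DESeq2. The pairs share groups with the comparisons above.

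For ME vs. MC the direction of CLCN3 and KCNK1 depended on how the libraries were scaled. With mapped reads alone, the median Log2FC over all genes with counts shifted by 0.87 for ME vs. MC, 0.47 for ME vs. PC, 0.38 for PC vs. MC, 0.28 for PE vs. MC, -0.54 for PE vs. ME and -0.05 for PE vs. PC. For ME vs. MC the number of members with a higher mean in ME became 9 of 18, since CLCN3 and KCNK1 turned, and the share of genes with counts that were higher in ME became 74.0%, against 52.7%. In the other pairs the number of listed members with a higher mean was the same under both scalings.

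**Figure D5:**
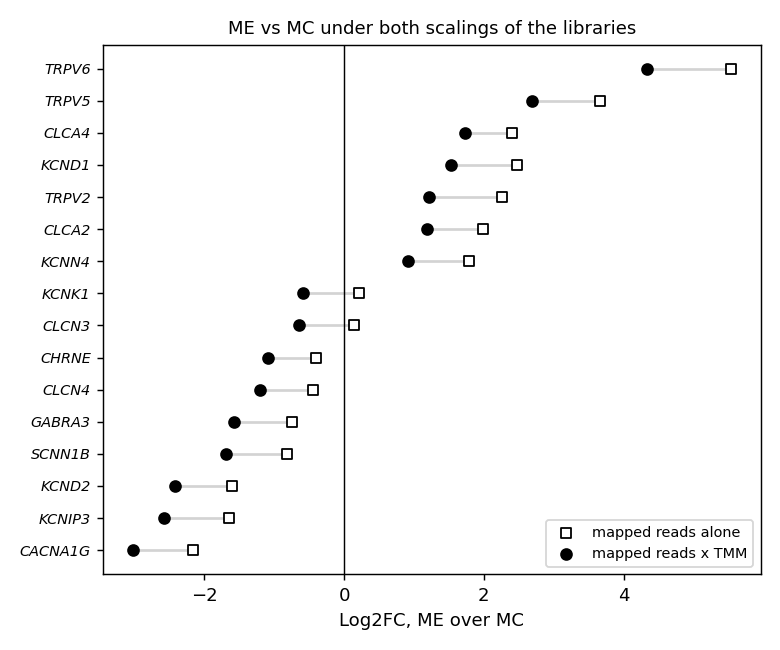
Log2FC of ME over MC (x axis) for 16 of the 18 listed channel genes (y axis) with mapped reads times TMM factors (filled circles) and with mapped reads alone (open squares), joined by a line for each gene. All genes drawn move to the right with mapped reads alone, and CLCN3 and KCNK1 cross 0.

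Other genes of ion transport, taken from 3 lists apart from the channel families, were held by the tables in part. Of 29 calcium pumps and store channels 11 were in a table, and the 1 with counts in all libraries, ITPR1, a channel that releases calcium from the endoplasmic reticulum, had a diet average of 1.30 (SE 0.21, adjusted p = 0.00989). Of 44 other chloride, anion and water channels 17 were in a table and 3 had counts in all libraries. Of these AQP7, a water and glycerol channel of adipocytes, had a diet average of -3.62 (SE 0.67, adjusted p = 0.0172). ANO2 (1.47, adjusted p = 0.0775) and LRRC8C (-1.03, adjusted p = 0.353) did not reach an adjusted p under 0.05 by edgeR. The sum over 4 of 6 adipocyte markers was 0.487 to 0.794 CPM in ME, against 7.41 to 12.7 CPM in MC, and 0.418 to 0.825 CPM in PE, against 1.24 to 5.01 CPM in PC, and its part in the AQP7 value was not tested. Of 22 sodium, potassium and proton pumps and cotransporters 5 were in a table and 2 had counts in all libraries, of which ATP1B1, a subunit of the sodium pump, had a diet average of 0.99 (SE 0.19, adjusted p = 0.0172) and SLC12A4, a potassium-chloride cotransporter, one of -0.11. ITPR1 and ATP1B1 lay under the minimum Log2FC of 1.5 in the rule for DEGs. Of all 1408 genes fitted, 77.3% had an unadjusted p under 0.05 for the diet average and 5.47% passed that rule. In the 6 pairs 0 genes of the 3 lists had an adjusted p under 0.05.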

How the data were processed

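Poly(A) RNA of 12 mammary biopsies, from 3 goats in each of 4 groups, was sequenced as stranded read pairs. The goat assembly CHIR_1.0 served the authors as reference, with Bowtie2 2.2.3 for mapping, RSEM 1.2.17 for expression and edgeR 3.2.4 for their tests. The expected counts deposited by the authors are neither normalized nor pooled, and each of the 6 tables holds genes with an unadjusted p under 0.05. The p-values and FDR that the authors deposited were read only to check that filter and to obtain the number of genes tested (14469 to 15221). Columns of their fold changes, log2 mean abundances and enrichment results were not used, and 0 count columns lacked a sample.

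Expected counts were rounded and tested with edgeR 4.0.16 (two-sided quasi-likelihood test) under R 4.3.3. The mapped reads in the study's library table were multiplied by TMM factors to give effective library sizes. These factors were computed over unselected count rows of a supplement of the study (1998 read), and so were the dispersion trend and prior, after keeping the 845 rows that reached 1 CPM in 3 or more libraries. A separate fit was made for each pair. Diet average, breed average and interaction came from a fit of the 1408 genes for which every library had a count. Benjamini-Hochberg adjustment used the number of genes tested by the authors (15221 for the 12-library fit). Genes without counts in the libraries of a fit were ranked behind all genes fitted, listed or not. Both tests were tested on simulated data. Alternatives were DESeq2 1.42.0, other scalings, no row filter, a replicate block and leaving out each library. Tables were made with Python 3.11.15 and pandas 2.3.3, and figures with matplotlib 3.10.9.

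Members, lists and named genes were chosen with earlier results of these data known. Values in every library are given for KCNIP1, GABRB1, GRIK4, CLCA2, members in at least 3 tables, the member with the smallest p in each comparison, the member with the highest mean CPM of each family and the pairs TRPV5/TRPV6, CLCA2/CLCA4 and KCNIP1/KCNIP3. KCNK6 and KCNA3 were added to a figure after their values were seen. Of 39 gene IDs 38 were found in RefSeq (ARS1.2), which was used for names only, since its build is not that of the files. Some members count in the totals but are not reported here by name or drawn.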

Additional observations from a re-analysis of the deposited data

How the results depend on the processing

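Alternatives were counted over 1335 Log2FC values of 104 gene and comparison pairs of members, not over every fit of a member. Of these values, 1287 kept direction and side of the threshold, 45 passed it only in the alternative and 3 reversed. The reversals were CLCN3 (0.15) and KCNK1 (0.21) for ME vs. MC with mapped reads alone, and TRPV6 for PE vs. ME, whose values without 1 library ran from -3.39 to 1.13. Signs also changed outside the 104 pairs. The diet average of KCNIP3 (-0.57) ran from -0.996 to 0.20 over the alternatives, and GABRB1 for ME vs. MC (-0.59) from -2.06 to 0.11. The number of members called, 0 in each pair, became 1 (ME vs. MC), 3 (PE vs. PC), 2 (PE vs. ME) and 8 (ME vs. PC) with mapped reads alone, 1 each (PE vs. PC and ME vs. PC) by DESeq2, and 3 (PE vs. PC) and 1 (PC vs. MC) without the row filter. Leaving out 1 library gave 0 to 2 (PE vs. PC, 2 without PE replicate 2: CLCA2 and SCN7A) and 0 to 1 (PE vs. MC, 1 without PE replicate 2: CLCA2). For the diet average the number, 1, became 4 with mapped reads alone (CLCA2, CLCA4, KCNN4 and TRPV6), and leaving out 1 library gave 0 to 1, with 0 without PE replicate 3. The cause was not tested. Over all genes DESeq2 called 74 (ME vs. MC), 90 (PE vs. PC), 4 (PC vs. MC), 11 (PE vs. ME), 76 (PE vs. MC), 126 (ME vs. PC) and 119 (diet average), against 6, 0, 1, 0, 10, 0 and 77 by edgeR. DESeq2 gave no p for TRPV6 in 3 comparisons. TMM factors over the libraries of a fit are the main ones in the 12-library fit and were not run apart there. Replicate numbers come from different goats. Libraries with the same number correlated between -0.324 and 0.228 in their deviations from the group means, and 6 of 18 matched their own number best, so that the numbers do not pair the samples. With a replicate block, 1 member (KCNN4) was called for PE vs. PC, and the calls of members in all other comparisons stayed the same. Over all genes the block gave 65 calls for PE vs. PC, 4 for ME vs. PC, 5 for PE vs. MC, 0 for ME vs. MC and 52 for the diet average. In ME vs. PC every library matched its own number best. At 1 to 20 counts per library, as for KCNIP1, TRPM3, TRPV5 and SCN2B, depth limits what can be told.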
